A study of Mus musculus with 3 samples.

Results

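The mouse reference assembly holds, beside its chromosomes, a set of short sequences that could not be put in order. Some are known to belong to a chromosome but have no position on it (unlocalised, named for example chr1_GL456211_random), and others have no known chromosome at all (unplaced, named chrUn). All such sequences named in the 3 methylation files were taken, apart from those named for X or Y, which gave 39 of the 66 sequence names in the files (17 unlocalised and 22 unplaced). They held 7192 of 14540304 CpG sites with a call in WT, 8291 of 16239290 in Pld6 KO and 5431 of 10384177 in Dnmt3l KO. The files came from whole-genome bisulfite sequencing of spermatogonia of C57BL6/J mice at postnatal day 7, sorted by FACS with an anti-EpCAM antibody, with 1 file each for WT, Pld6 KO and Dnmt3l KO. The study's methods count Pld6+/+, Pld6+/- and Dnmt3l+/- mice as WT, and the labels do not say which of these the WT library came from. The study's methods describe replicate mice, and whether a file holds 1 of them or several together is not given in the labels. Each file is called a library here. With 1 per genotype there is no replicate check, and every difference below compares libraries, not groups of mice. Where 3 values stand in a row with no library named, their order is WT, Pld6 KO, Dnmt3l KO.

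Male germ cells lose most DNA methylation in the fetus and set it anew before birth. DNMT3L is a cofactor of the enzymes that do so, and PLD6 (MitoPLD) is needed to make piRNAs, the small RNAs that guide methylation to some retrotransposon promoters. Sequences left out of the chromosomes are mostly repetitive: tandem satellite arrays, recently duplicated blocks and retrotransposon copies. The mouse major satellite is the AT-rich tandem repeat that surrounds centromeres.

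The results below turn on 4 short sequences, printed from the RefSeq copy of the same assembly (GRCm38, the mm10 build of the files) with each CpG in capitals. The first is a 234-base unit of the tandem array in JH584304, chrUn_JH584304:79150-79383 on the minus strand, shown because its copies carried a large share of all calls.
Repeat unit: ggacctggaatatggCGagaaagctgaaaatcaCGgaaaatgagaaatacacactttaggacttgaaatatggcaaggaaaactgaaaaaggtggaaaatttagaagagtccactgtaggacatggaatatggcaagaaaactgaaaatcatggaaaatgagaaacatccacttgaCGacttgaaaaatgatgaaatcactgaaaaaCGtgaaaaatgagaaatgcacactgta
The unit has the length of the major satellite repeat. The second, chrUn_GL456392:22099-22238 on the plus strand, is a satellite stretch with the 3 most deeply read CpGs of all these sequences, and runs in the opposite direction to the unit.
GL456392: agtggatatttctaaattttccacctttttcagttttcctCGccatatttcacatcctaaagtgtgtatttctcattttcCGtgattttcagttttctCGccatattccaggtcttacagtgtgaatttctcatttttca
The third, chr5_GL456354_random:172071-172286 on the plus strand, is 98.6% identical to the study's L1Md_A promoter amplicon and is 1 of a row of such monomers, the tandem units that form the promoter of this young LINE-1 family.
L1Md_A monomer: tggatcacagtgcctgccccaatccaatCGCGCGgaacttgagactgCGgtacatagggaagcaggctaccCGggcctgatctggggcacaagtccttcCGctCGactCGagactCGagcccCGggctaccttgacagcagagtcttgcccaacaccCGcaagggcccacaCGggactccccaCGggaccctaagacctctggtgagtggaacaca
The fourth, chrUn_JH584304:59640-59939 on the minus strand, covers the annotated start of the pseudogene Pisd-ps3, which was unmethylated in all 3 libraries.
Pisd-ps3 start: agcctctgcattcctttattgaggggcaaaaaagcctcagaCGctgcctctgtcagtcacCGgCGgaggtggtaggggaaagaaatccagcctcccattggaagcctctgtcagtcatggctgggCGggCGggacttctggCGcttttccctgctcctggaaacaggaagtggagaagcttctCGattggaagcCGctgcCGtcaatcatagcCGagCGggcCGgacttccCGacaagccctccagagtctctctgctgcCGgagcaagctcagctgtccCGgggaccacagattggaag

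Exon 1 of Pld6 on chromosome 11 had 90 calls in WT, 40 in Dnmt3l KO and 0 in Pld6 KO, as its label says. Exons 4 to 9 of Dnmt3l on chromosome 10 had 0 calls in Dnmt3l KO, against 0 to 6 per exon in WT and 2 to 19 in Pld6 KO. The start of Kcnq1ot1 on chromosome 7, an imprinted region that is unmethylated in male germ cells, had levels of 0.0780, 0.0700 and 0.0154 from 141, 243 and 65 calls. A level is the number of methylated calls divided by all calls.

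How much of each sequence could be read followed how unique it is. Of the CpGs in the 39 sequences, 21.01%, 24.2% and 15.9% had a call, against 66.5%, 74.2% and 47.5% on chromosomes 1 to 19, X and Y. The share of a sequence's CpGs that lie in a 79-base stretch found once in the assembly after bisulfite conversion was computed (79 bases is the read left after trimming). It ran from 0% to 100%, and across the 39 sequences it went with the share of CpGs covered in WT (Spearman's rho 0.789, Pearson's r 0.888, a description over sequences that share the same library). The minimum of 50 calls per library was reached by 30 sequences: all 22 unplaced and 8 of 17 unlocalised ones. In 8 of the other 9 at most 6.38% of CpGs were in unique stretches. GL456213, JH584293, JH584294, JH584298 and GL456219 had 0 to 8 calls in any library. The 9th, JH584295, missed the limit with 48 calls in Dnmt3l KO, and GL456368 and GL456382 were just inside it with 56 each.

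**Figure D1:**
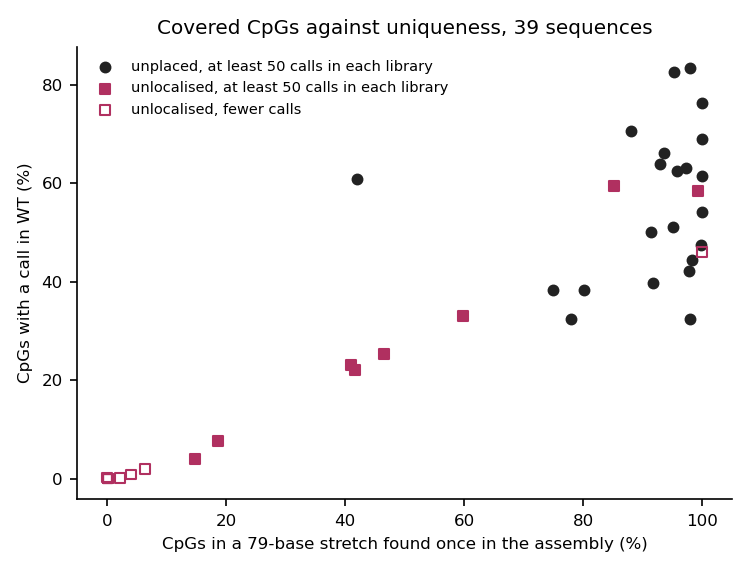
Each point is 1 of 39 sequences. The x axis gives the percentage of its CpGs in a 79-base stretch found once in the assembly, and the y axis the percentage of its CpGs with a call in WT. Filled points passed the minimum of 50 calls. The open points lie at the lower left, apart from JH584295 at 100%, and JH584304 stands above the others at 41.95% on the x axis.

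Calls were very unevenly spread. JH584304 held 55.1%, 53.6% and 51.5% of the calls on these sequences, and GL456392 a further 21.4%, 19.04% and 26.7%. Relative to the calls per CpG on the chromosomes, GL456392 was read 25.3, 18.98 and 35.7 times as deeply, and JH584304 13.8 times as deeply in WT. The median over the 30 sequences was 0.719 times in WT. At 22139, 22179 and 22197 of GL456392, the 3 CpGs of the printed stretch, WT had 4826, 4775 and 2990 calls. Pooled values therefore describe mostly these 2 sequences, and are given below with and without them.

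Pooled over all 39 sequences, methylation differed little between WT and Pld6 KO and was far lower in Dnmt3l KO. WT had a level of 0.421 (88682 calls, 95% Wilson interval 0.418 to 0.424). Pld6 KO had 0.425 (109288 calls, 0.422 to 0.428) and Dnmt3l KO 0.119 (44073 calls, 0.116 to 0.123). Wilson intervals cover counting error only, and calls of 1 molecule or 1 repeat are linked. With the spread between 1 kb blocks as the error, Pld6 KO differed from WT by 0.0043 (95% interval -0.0582 to 0.0669; two-sided Fisher's exact test on calls, p = 0.0519). These block intervals take the blocks of each library as separate, although both libraries were read at the same places. Variation between places can therefore widen them. An interval that includes 0, or a difference called not separable, does not show that 2 libraries are alike. Dnmt3l KO differed from WT by -0.301 (-0.357 to -0.246), and its two-sided Fisher's exact p was under 2.23e-308, the smallest number the computation returns. On the chromosomes the same 3 levels were 0.703, 0.723 and 0.301, so the sequences were less methylated in every library. The difference from the chromosomes was -0.283 in WT (-0.338 to -0.227), -0.298 for Pld6 KO (-0.334 to -0.261) and -0.182 for Dnmt3l KO (-0.2004 to -0.163). A decrease cannot exceed the WT level, which was 0.421 here and 0.703 on the chromosomes, so its size depends on that level. Decreases as a share of the WT level were not compared. The decrease in Dnmt3l KO was smaller than on the chromosomes by 0.101 (0.0422 to 0.160). That gap was 0.0321 (0.0043 to 0.0599) at sites with at most 20 calls in every library, 0.0396 as a mean of site levels, and 0.0401 (-0.0322 to 0.112) with satellite left out on both sides. In the pooled levels, the Pld6 KO difference was not separable from theirs (-0.0150, -0.0816 to 0.0516).

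Without JH584304 and GL456392 the levels were 0.497, 0.492 and 0.121. The unlocalised sequences were at 0.579, 0.534 and 0.131, and the unplaced ones at 0.404, 0.411 and 0.118. Unlocalised sequences had the higher level in WT, and in Dnmt3l KO the intervals between blocks overlapped (0.102 to 0.160 and 0.101 to 0.136).

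By sequence, the 30 that passed the minimum of 50 calls ranged in WT from 0.234 (GL456383) to 0.828 (GL456368), with a median of 0.552. Pld6 KO ranged from 0.228 to 0.780 (median 0.498), and Dnmt3l KO from 0.0357 to 0.389 (median 0.0999). Of the 30, 14 (46.7%) lay below 0.5 in WT, against 5.93% of the 50460 placed 50 kb windows with the same minimum of calls. GL456383, GL456381 and GL456390 were lowest in WT, at 0.234, 0.261 and 0.280, and had 0.317, 0.228 and 0.234 in Pld6 KO. Their Dnmt3l KO levels were 0.0822, 0.0568 and 0.0450.

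**Figure D2:**
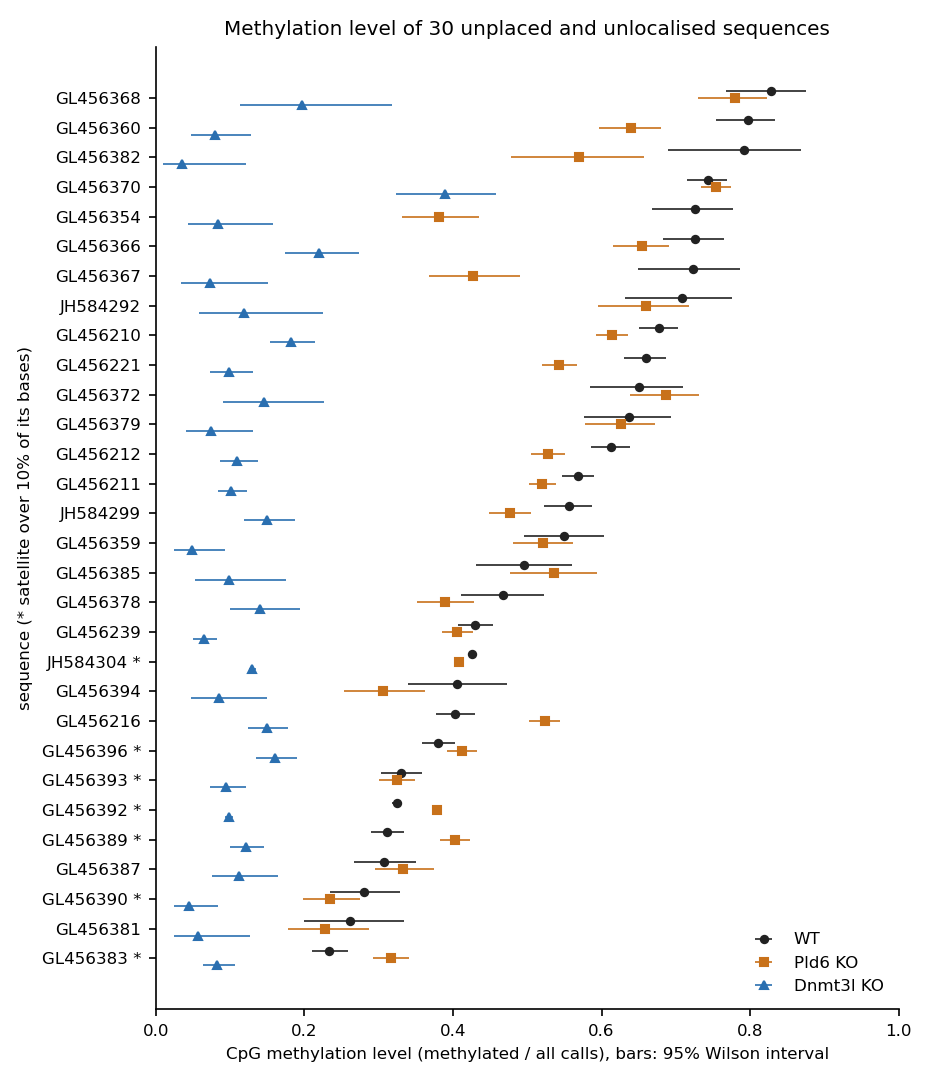
Methylation level on the x axis for 30 sequences ordered by their WT level on the y axis, as black circles (WT), orange squares (Pld6 KO) and blue triangles (Dnmt3l KO) with 95% Wilson intervals. Sequences marked * are more than 10% satellite. The triangles lie at or under 0.389 throughout, and the marked sequences lie in the lower part, with WT levels of at most 0.426.

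All 30 were lower in Dnmt3l KO than in WT. The decrease was at least 0.3, the size the study calls severe, in 20 of 30 sequences (66.7%), against 88.4% of placed 50 kb windows. GL456394 (-0.319) and GL456378 (-0.327) were just past this size, and JH584304 (-0.296) just short of it. GL456382, GL456360 and GL456367 fell most. GL456382 had levels of 0.792, 0.570 and 0.0357 from 77, 114 and 56 calls. GL456360 had 0.797, 0.639 and 0.0791, and GL456367 had 0.723, 0.427 and 0.0732. GL456383, GL456389 and GL456387 fell least: GL456389 went from 0.311 in WT to 0.121 in Dnmt3l KO, and GL456387 from 0.307 to 0.112. Low starting levels and small decreases went together over the 30 sequences (Pearson's r between WT level and difference -0.929), which is partly built in, since the WT level enters both. GL456370 kept the highest level in Dnmt3l KO, 0.389 (198 calls), after 0.743 in WT and 0.755 in Pld6 KO. It has the lowest GC content of the 30 (28.8%) and yet the most CpGs (22.4 per kb, median 7.81).

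Among the sequences with many calls, GL456211 (chromosome 1) was at 0.568, 0.520 and 0.101. GL456239 was at 0.430, 0.406 and 0.0643, and GL456396 at 0.380, 0.412 and 0.161. In each of these the interval of the Dnmt3l KO difference from WT excluded 0, and that of Pld6 KO did so only in GL456396 (0.0329, 0.0033 to 0.0625). A single 1 kb block held 81.6% of the WT calls and 79.1% of the Pld6 KO calls of GL456396. Its interval therefore measures little spread between blocks and can be too narrow.

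Pld6 KO moved some sequences down and a few up. It was below WT in 21 of 30 sequences (70.0%), against 50.3% of placed 50 kb windows. It was lower by at least 0.1 in 5 (16.7%, placed 5.59%), higher by at least 0.1 in 1 (3.33%, placed 1.83%), and lower by at least 0.3 in 1 (3.33%, placed 0.0357%). The sequences had fewer calls than the windows (median 456 against 660 in WT), and a level from fewer calls scatters more. The 3 lowest differences were in GL456354, at 0.726 in WT and 0.381 in Pld6 KO (-0.345, 95% interval -0.397 to -0.293), in GL456367 (-0.296, -0.463 to -0.129) and in GL456382 (-0.222, -0.471 to 0.0270). The 3 highest were in GL456216, at 0.403 in WT and 0.524 in Pld6 KO (0.121, -0.161 to 0.402), in GL456389, at 0.311 and 0.403 (0.0912, 0.0594 to 0.123), and in GL456383 (0.0831, 0.0096 to 0.156). GL456389 and GL456383 are mostly satellite, and the 3 lowest hold none. Of the 7 sequences with more than 10% satellite, 4 were above WT and 3 below. The 3 below were GL456390 (-0.0454), JH584304 (-0.0179) and GL456393 (-0.0054). In GL456354 a single 1 kb block held 82.5% of WT calls and 69.1% of Pld6 KO calls, and in GL456389 79.1% and 75.5%. The intervals of these 2 sequences therefore measure little spread between blocks and can be too narrow.

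**Figure D3:**
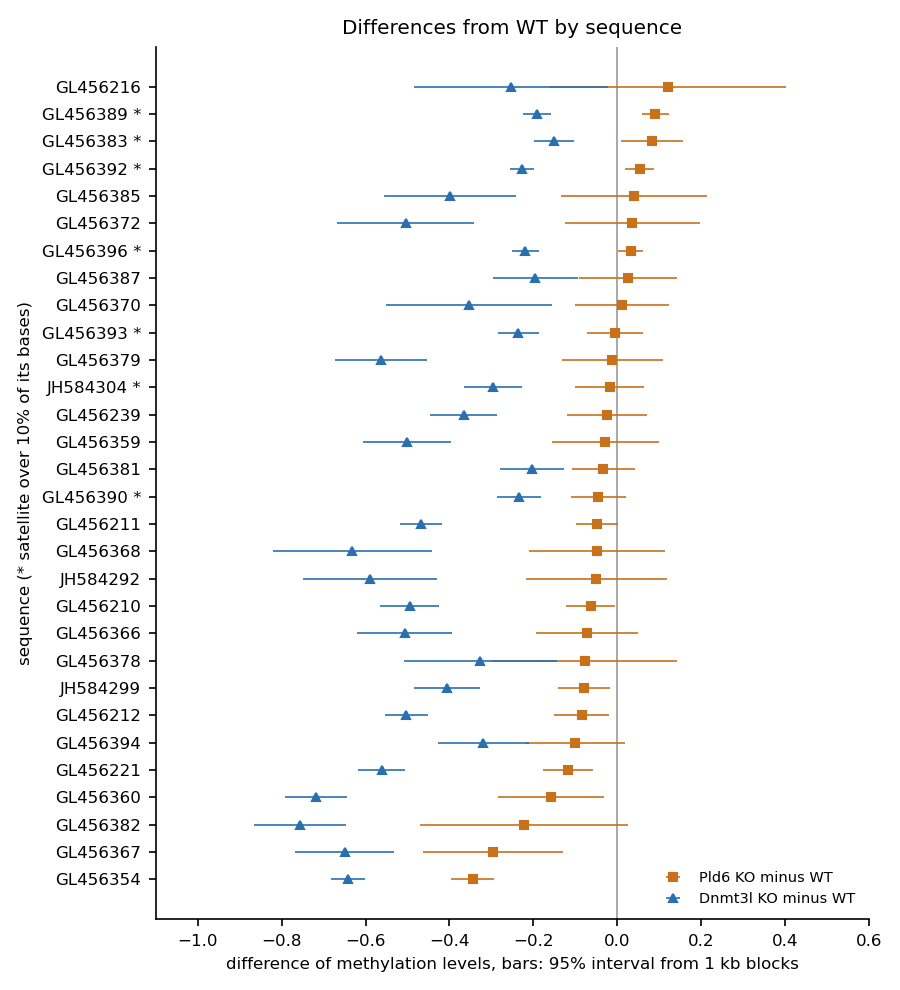
Difference from WT on the x axis for 30 sequences on the y axis, ordered by the Pld6 KO difference, with 95% intervals from the spread between 1 kb blocks. Orange squares are Pld6 KO and blue triangles Dnmt3l KO; * marks more than 10% satellite. All triangles lie left of 0, and squares range from -0.345 (GL456354) to 0.121 (GL456216). Bars of sequences with most calls in a single block, such as GL456354, can be too narrow.

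The lowest value came from 1 monomer of an L1Md_A promoter. GL456354 holds 5 matches to the L1Md_A amplicon between 171655 and 172702, 96.3% to 99.1% identical to it. The printed monomer alone had 208 of the 252 WT calls of this 195993-base sequence, at a level of 0.736. Pld6 KO had 0.365 there (230 calls) and Dnmt3l KO 0.0952 (63 calls). Outside the matches 39, 86 and 32 calls remained, at 0.641, 0.430 and 0.0625, so the WT and Pld6 KO Wilson intervals there (0.484 to 0.773 and 0.331 to 0.536) overlapped. Over all 10 such matches on 4 of the sequences, WT was at 0.749 (239 calls, Wilson interval 0.690 to 0.7997). Pld6 KO was at 0.403 (293 calls, 0.348 to 0.460) and Dnmt3l KO at 0.137 (73 calls). The 5007 matches on the chromosomes had 0.866, 0.223 and 0.0918. Pld6 KO therefore lay below WT at L1Md_A promoters in both places; the gap was not tested between them, since 1 monomer gave most calls here.

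Of the study's other retrotransposon amplicons, IAPLTR1_MM (an LTR of the IAP family) had 3 matches with 5 to 26 calls per library, and 1 match to RLTR10C had at most 3. RLTRETN_Mm, RLTR1B, RLTR4 and RLTR6 had no match at 90% identity over 90% of their length. MT2-MERVL, the LTR of the MERVL family, had 18 matches on 8 sequences, at 0.345, 0.761 and 0.185 from 116, 138 and 27 calls, against 0.828, 0.794 and 0.296 on the chromosomes. GL456350, which missed the minimum, had 103, 132 and 24 calls at 0.272, 0.720 and 0.167, all WT calls in a single 1 kb block; whether these are the MT2-MERVL calls was not tested.

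Lower levels in Pld6 KO were also found in single 1 kb blocks of other sequences. Among 364 blocks with at least 20 calls in both WT and Pld6 KO, 20 (5.49%) on 13 sequences were lower in Pld6 KO by at least 0.3, against 1.39% of 666699 placed blocks, and 10 (2.75%) were higher by at least 0.3, against 1.12%. A decrease of 0.3 needs a WT level of at least 0.3. Satellite matches on these sequences pooled to 0.315 in WT, which left satellite blocks little room for it. The 20 blocks had WT levels of 0.536 to 0.955 and Dnmt3l KO levels of 0 to 0.391, and none held a satellite match. In 10 of them most CpGs were soft-masked, that is, marked as repeat in the assembly, as in 149 of all 364. The lowest were at 2000 to 2999 of GL456367, with 0.875 in WT and 0.0769 in Pld6 KO from 24 and 39 calls, at 26000 to 26999 of GL456378, with 0.762 and 0.148 from 21 and 27 calls, and at 3000 to 3999 of GL456392, with 0.905 and 0.340 from 42 and 53 calls. In GL456360, blocks at 18000 to 18999 and at 19000 to 19999 were next to each other, at 0.900 and 0.840 in WT and 0.486 and 0.397 in Pld6 KO. None of these blocks had Dnmt3l KO calls that were methylated.

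Satellite DNA stood apart from the other bases of the sequences. Matches to the printed unit of at least 100 bases covered more than 10% of 7 of the 30 sequences: 96.9% of GL456390, 94.8% of GL456383, 64.9% of GL456392, 60.2% of GL456389, 49.6% of GL456396, 41.7% of JH584304 and 15.4% of GL456393. These 7 had WT levels of 0.234 to 0.426, and the other 23 had a median of 0.637 (range 0.261 to 0.828). Inside the matches WT was at 0.315 (41854 calls, interval between blocks 0.294 to 0.337). Pld6 KO was at 0.354 there (48880 calls, 0.331 to 0.377) and Dnmt3l KO at 0.0958 (21832 calls, 0.0861 to 0.105). Outside them it was 0.515 (46828 calls), 0.483 (60408 calls) and 0.143 (22241 calls). Satellite minus other sites was -0.1996 in WT (-0.272 to -0.128), -0.129 for Pld6 KO (-0.182 to -0.0757) and -0.0469 for Dnmt3l KO (-0.0712 to -0.0227).

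In the satellite, Pld6 KO differed from WT by 0.0386 (0.0072 to 0.0700) and Dnmt3l KO by -0.220 (-0.243 to -0.196). Outside it, Pld6 KO differed from WT by -0.0323 (-0.116 to 0.0514), and Dnmt3l KO by -0.372 (-0.445 to -0.3001). The Pld6 KO interval includes 0, with the blocks of the 2 libraries not paired. The Dnmt3l KO decrease in satellite was smaller than outside it by 0.153 (0.0767 to 0.229). This gap depends on the WT level, which was 0.315 in satellite and 0.515 outside and which a decrease cannot exceed. The Pld6 KO differences inside and outside were not separable (0.0709, -0.0185 to 0.160). Satellite matches on the chromosomes had 0.384, 0.421 and 0.135, a difference from WT of 0.0377 for Pld6 KO (-0.0165 to 0.0919) and of -0.248 for Dnmt3l KO. Neither KO difference was separable between the 2 places (0.0009, -0.0618 to 0.0635 for Pld6 KO; 0.0286, -0.0143 to 0.0716 for Dnmt3l KO). Among copies at least 90% identical to the unit, JH584304 was at 0.325, 0.347 and 0.104, GL456392 at 0.314, 0.372 and 0.0969, GL456389 at 0.324, 0.408 and 0.111, and GL456396 at 0.383, 0.426 and 0.172. Pld6 KO was the highest of the 3 libraries in each of these 4, and also in the copies on chromosomes 2, 9, 12 and 14.

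Single CpGs of the unit differed from each other. Positions are counted from 1 at the first base of the printed unit, and copies can carry CpGs that the printed one lacks. At position 208, the C of the last CG in the printed unit, WT was at 0.197, Pld6 KO at 0.2005 and Dnmt3l KO at 0.0288. At the other 6 positions read well enough (16, 34, 62, 74, 177 and 192) the ranges were 0.336 to 0.387, 0.343 to 0.442 and 0.0644 to 0.152. Position 208 was lowest in JH584304 (0.194, 0.202 and 0.0284) and in GL456392 (0.187, 0.199 and 0.0304) alike. It was also lowest in the copies on chromosomes 2 (0.239, 0.248 and 0.0350) and 9 (0.187, 0.188 and 0.0227) among these 7 positions. A copy with TG or CA for CG can read as unmethylated in bisulfite data, depending on the strand read. Copies with either made up 15.3% of 202 aligned reference copies at position 208 on the unplaced sequences and 1.13% of 177 on the chromosomes, where the level was 0.226, 0.232 and 0.0320. In the pooled copies of the unplaced sequences, the Wilson intervals of WT and Pld6 KO overlapped at positions 208 and 62, and Pld6 KO was the higher beyond them at 16, 34, 74, 177 and 192. In JH584304 alone Pld6 KO was the higher beyond the Wilson intervals only at position 177. There the intervals overlapped at 16, 34, 62, 74, 192 and 208, and position 34 had 0.399 in WT and 0.383 in Pld6 KO. Of the 6696 pooled WT calls at position 34, 4952 came from 3 sites of GL456392. On the chromosomes Pld6 KO was above WT beyond the Wilson intervals at all 7 positions. These intervals cover counting error only, and chromosome 2 gave most of the chromosome calls. On chromosome 9 alone the intervals overlapped at position 208. For all satellite matches on the chromosomes, the interval between blocks included 0 (0.0377, -0.0165 to 0.0919).

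**Figure D4:**
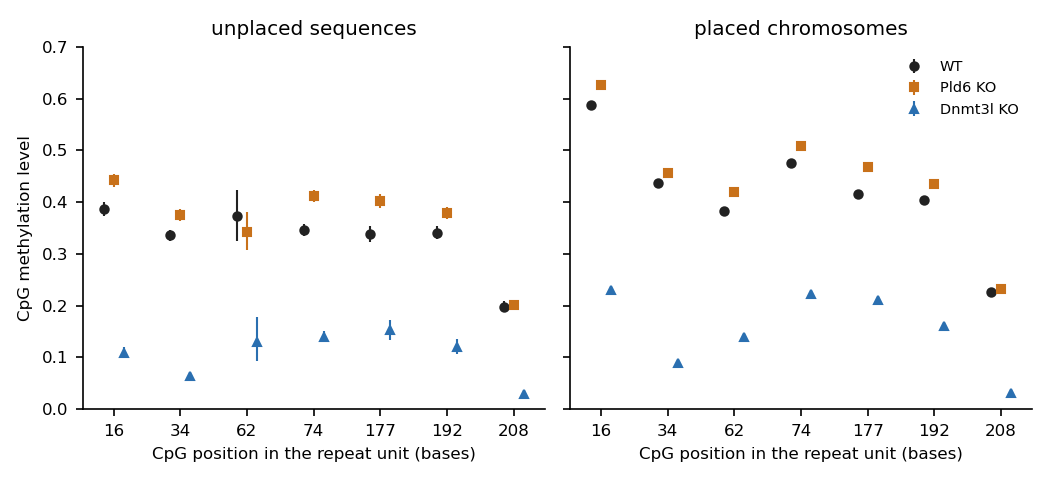
Methylation level on the y axis at 7 CpG positions of the satellite unit on the x axis, in copies at least 90% identical to the unit on the unplaced sequences (left) and the chromosomes (right). Symbols are libraries, bars 95% Wilson intervals. Position 208 is lowest in every library in both panels, at 0.197 in WT on the left and 0.226 on the right.

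Levels differed between stretches of JH584304 (114452 bases). Its first 68 kb has no tandem repeat of the unit length (at most 27.8% of bases equal the base 234 positions on in any 2 kb window), and from 68001 to 114000 all 23 windows do (54.3% to 93.6%). Over the first 58 kb the levels were 0.576, 0.524 and 0.178 from 22024, 26630 and 10758 calls. From 58001 to 62000, around the start of Pisd-ps3, it was 0.0612, 0.0712 and 0.0114 from 4609, 5067 and 2106 calls. From 62001 to 68000, 2 kb windows ranged from 0.390 to 0.480 in WT and from 0.367 to 0.397 in Pld6 KO. In Dnmt3l KO they ranged from 0.0584 to 0.150. The array had levels of 0.326, 0.346 and 0.102.

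In 2 kb windows that passed the same minimum, Pld6 KO was below WT in 25 of 27 windows of the first 58 kb, with a median difference of -0.105 and a lowest of -0.238, and in 3 of 15 windows of the array, with a median of 0.0255. The 2 exceptions in the first 58 kb were at 34001 to 36000, with 0.312 in WT and 0.494 in Pld6 KO from 4158 and 4618 calls, and at 40001 to 42000, with 0.469 and 0.482. The first of these begins just after the start of LOC100861738, a pseudogene, and had the most calls of the 27. Dnmt3l KO was below WT in all 27 and all 15 windows, with median differences of -0.495 and -0.244. The first 68 kb had 48.8 calls per CpG in WT against 1.996 on the chromosomes.

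**Figure D5:**
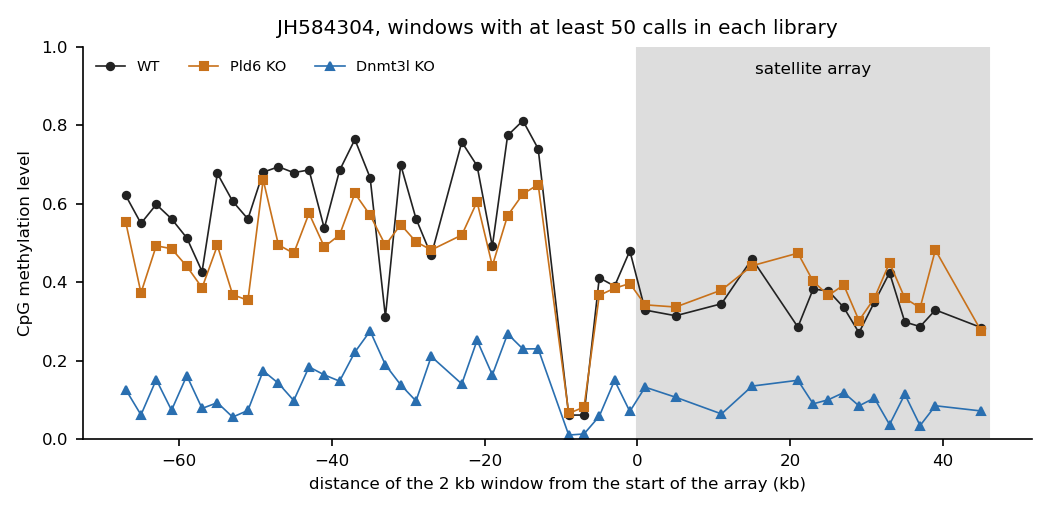
Methylation level on the y axis in 2 kb windows of JH584304 that passed the minimum of calls, against distance from the start of the satellite array (grey) in kb on the x axis. Black circles are WT, orange squares Pld6 KO and blue triangles Dnmt3l KO. WT lies above Pld6 KO over the first 58 kb except in 2 windows, all 3 libraries fall below 0.1 in the windows around the start of Pisd-ps3, and WT and Pld6 KO run close together in the array.

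RefSeq places 131 genes on the 39 sequences, and 23 had at least 10 calls in each library from 2 kb before to 0.5 kb after their start on a sequence above the minimum. Their median levels were 0.558, 0.498 and 0.0598. Over 39693 gene starts on the chromosomes with the same minimum they were 0.423, 0.463 and 0.10. In WT 13.0% of the 23 and 37.8% of the starts on the chromosomes lay under 0.2, too low for a decrease of 0.3. The shares that follow therefore depend on the WT level. Dnmt3l KO was below WT by at least 0.3 at 18 of 23 (78.3%), against 44.3% of the starts on the chromosomes. Pld6 KO was so at 2 (8.70%), against 0.844%: LOC115489317 and LOC115489313, the second named after its values were seen (0.514 in WT from 37 calls and 0 in Pld6 KO from 24). Pisd-ps3, a transcribed pseudogene of phosphatidylserine decarboxylase, had the most calls and was unmethylated, at 0.0581, 0.0618 and 0.0088 from 4162, 4560 and 1924 calls. The printed 300 bases at its start had 0.0398, 0.0449 and 0.0050. LOC100861738 was at 0.420, 0.531 and 0.238, LOC105247294 at 0.558, 0.537 and 0.250, LOC100861749 at 0.579, 0.469 and 0.153, and LOC108168686 at 0.649, 0.498 and 0.0598. These 5 starts are all on JH584304.

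Of the 10 starts with most calls, the other 5 had 36 to 246 calls per library. LOC115489312 on GL456216 was at 0.570, 0.805 and 0.396. LOC100503923 on GL456211, a protein-coding gene, was at 0.554, 0.532 and 0.0545, and LOC434608 on GL456366 at 0.784, 0.508 and 0.278. LOC115489317 and LOC630077 on GL456378 overlap: the first was at 0.379, 0.0247 and 0, and the second at 0.0556, 0.0476 and 0. The window of LOC115489317 overlaps the block at 26000 to 26999 given above.

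Outside satellite matches, soft-masked CpGs of the sequences were at 0.571, 0.501 and 0.147, and on the chromosomes at 0.785, 0.746 and 0.283. Pld6 KO differed from WT by -0.0694 (-0.135 to -0.0043) in the first and by -0.0391 (-0.0402 to -0.0380) in the second, and these were not separable (-0.0303, -0.0954 to 0.0348). At CpGs that are not masked, Pld6 KO differed from WT by -0.0225 (-0.116 to 0.0712) on the sequences and by 0.0255 (0.0216 to 0.0295) on the chromosomes. Leaving out satellite and JH584304, the sequences were at 0.560, 0.530 and 0.127 against 0.722, 0.739 and 0.310 on the chromosomes without satellite. There the Pld6 KO difference minus that of the chromosomes was -0.0455 (-0.0849 to -0.0061), and the Dnmt3l KO difference was not separable (-0.0201, -0.0540 to 0.0138).

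At single CpGs with at least 10 calls in every library, 554 on the sequences, the median levels were 0.455, 0.429 and 0.10. In WT 71.8% of them lay between 0.2 and 0.8, 18.4% under 0.2 and 9.75% over 0.8. Outside satellite (420 sites) 62.9% were lower in Dnmt3l KO by at least 0.3 and 6.43% in Pld6 KO, and inside it (134 sites) 22.4% and 0%. The median WT level was 0.551 outside and 0.314 inside, which left satellite sites less room for such a decrease. Over all 554 sites the shares were 53.1% and 4.87%. Of the 1982 placed sites of that depth, not split by satellite, 33.3% and 3.68% were lower by that much, with median levels of 0.237, 0.267 and 0.0574. These 1982 are unusually deep sites among 21867550 CpGs, which had 1.996 calls per CpG in WT. Their WT median lies under the pooled chromosome level of 0.703, so they do not stand for the chromosomes at large.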

How the data were processed

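DNA of FACS-purified spermatogonia was bisulfite treated and sequenced by post-bisulfite adaptor tagging (100-base single-end reads), with 1 deposited file per genotype. The authors removed the first 6 and last 15 bases and stretches under a quality of 30, and mapped reads to unique positions of mm10 with Bismark at default settings; its version and the merging of strands are not given in the sources used here. The deposited files hold, per CpG, the methylation fraction and the counts of methylated and unmethylated calls; the fraction equalled the ratio of counts at every site. The calls reached 43637121 (WT), 63920231 (Pld6 KO) and 19232072 (Dnmt3l KO) on chromosomes 1 to 19, X and Y.

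Sequence names were tied to RefSeq entries of GRCm38 by CpG positions, all of which matched. Counts were pooled per sequence, and sequences that reached 50 calls in every library were described one by one. Wilson 95% intervals cover counting error. Intervals for levels and differences use the spread between 1 kb blocks as a ratio estimate, with the blocks of each library taken as separate. The interval of a mean over sequences uses the spread between sequences instead. Linked calls were simulated for the level of a single library over 300 blocks of similar depth. There 96.0% of block intervals held the true level, and 51.0% of Wilson intervals did. Differences between libraries, and sequences with most calls in a single block, were not simulated. Fisher's exact test (two-sided) compared calls of 2 libraries. Background windows were 50 kb, with the same minimum. Matches to the satellite unit and to the amplicons were found with blastn 2.17.0. Sequences named in the text were those with most calls, the largest and smallest decreases, the lowest and highest Pld6 KO differences and the lowest WT levels, and gene starts were ranked by calls; blocks and the sequences of the repeats were singled out after their values were seen. The members and lists were chosen with earlier results of these data known. Alternatives changed the minimum of calls, the depth of sites, the size of a severe decrease, the weighting and the sequences pooled. Python 3.11.15, SciPy 1.17.1, NumPy 2.4.6 and pandas 2.3.3 were used.

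Only uniquely mapped reads count, so nearly identical copies give calls only where they differ, and reads from copies missing in the assembly can fall on the nearest one listed. A C-to-T difference between copies reads as an unmethylated call.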

Additional observations from a re-analysis of the deposited data

How the results depend on the processing

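No paired analysis was possible because each genotype had 1 library, and no replicate could be left out. The Pld6 KO minus WT difference of the pooled level, 0.0043, had no stable sign. It was 0.0303 without the sequence with the most calls, 0.0064 in unplaced sequences alone, -0.0148 at sites with at most 20 calls in every library and -0.0444 in unlocalised sequences; all 4 passed Fisher's exact test, and the intervals of all 4 included 0. It was -0.0422 (-0.0753 to -0.0090) as a mean of site levels and -0.0475 (-0.0848 to -0.0103) as a mean over sequences. The second interval comes from the spread between the 30 sequences, not between blocks. Sequences of 1 library are not replicates, so it does not measure variation between mice. Chosen after seeing the data, leaving out the 2 sequences with the most calls gave -0.0051, satellite matches alone 0.0386 and the rest -0.0323. The Dnmt3l KO difference kept its sign and its interval excluded 0 under all 11 alternatives (-0.448 to -0.220). The 20 sequences lower in Dnmt3l KO by at least 0.3 became 8 (of 16) at 200 calls in each library, which removes 14 sequences. The 1 lower in Pld6 KO became 2 at 20 calls in each library, 0 at 200, 3 for a decrease of at least 0.2 and 3 with mean site levels. Against the chromosomes, both differences of differences kept their direction under 3 alternatives (Pld6 KO -0.0320 to -0.0150, Dnmt3l KO 0.0321 to 0.101). The intervals of Pld6 KO all included 0, and those of Dnmt3l KO excluded it. With satellite left out on both sides, the Dnmt3l KO value was 0.0401 (-0.0322 to 0.112). With JH584304 left out as well it was -0.0201 (-0.0540 to 0.0138), so its sign was not stable. The Pld6 KO value was then -0.0455 (-0.0849 to -0.0061). Depth limits most sequences: the smallest of the 30 had 56 calls in Dnmt3l KO.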
